A study of Homo sapiens with 59 samples.

Results

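The mRNAs of 10 proteins encoded by human mitochondrial DNA are described here: MT-ND1, MT-ND2, MT-ND3, MT-ND4 and MT-ND5 of complex I, MT-CYB of complex III, MT-CO1, MT-CO2 and MT-CO3 of complex IV, and MT-ATP6 of the ATP synthase. They were taken by name from the deposited tables, where they make up 10 of the 34622 gene rows found in any table, and all 10 were present and tested in each of the 7 tables. The cells were Jurkat, an established human T cell leukaemia line, grown to day 3 in medium with histidine, methionine, phenylalanine, tryptophan, isoleucine, leucine or valine at 25%. The labels do not say what the 25% refers to or what the control medium held. Each restricted group had 5 libraries. Histidine, methionine, phenylalanine and tryptophan each had 5 control libraries of their own, and isoleucine, leucine and valine shared 4 libraries of a branched-chain amino acid (BCAA) control, so these 3 comparisons are not independent of each other. The labels do not tell whether the libraries of one group are separate cultures, so a p-value here reflects library-to-library spread that could be technical.

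Mitochondrial DNA is transcribed from each strand as a long polycistronic RNA, and the mRNAs are released mainly by excision of the tRNAs that lie between them. Mature mRNAs are polyadenylated and translated inside the organelle by ribosomes built on the mitochondrial rRNAs MT-RNR1 and MT-RNR2. Their products are core membrane subunits of the respiratory chain, which assemble with many nuclear encoded subunits.

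All 10 genes lie on the + strand of the mitochondrial chromosome of GRCh38 in the GENCODE v29 annotation, as single exons without introns. In the order of the strand they are MT-ND1 (MT:3307-4262), MT-ND2 (MT:4470-5511), MT-CO1 (MT:5904-7445), MT-CO2 (MT:7586-8269), MT-ATP6 (MT:8527-9207), MT-CO3 (MT:9207-9990), MT-ND3 (MT:10059-10404), MT-ND4 (MT:10760-12137), MT-ND5 (MT:12337-14148) and MT-CYB (MT:14747-15887). Below are the first 90 bases of 4 mRNAs that rose under both leucine and methionine restriction, followed by 2 that were not called in either comparison. They come from the GENCODE v29 transcripts, 5′ to 3′, with the first codon and every leucine or methionine codon (vertebrate mitochondrial code) in capitals.
MT-ND1: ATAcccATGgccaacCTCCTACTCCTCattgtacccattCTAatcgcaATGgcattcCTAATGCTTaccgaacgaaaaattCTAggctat
MT-ND2: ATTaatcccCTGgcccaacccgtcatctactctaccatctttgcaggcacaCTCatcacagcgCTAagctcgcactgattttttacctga
MT-CYB: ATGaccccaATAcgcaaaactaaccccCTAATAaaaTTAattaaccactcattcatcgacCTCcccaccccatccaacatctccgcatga
MT-CO3: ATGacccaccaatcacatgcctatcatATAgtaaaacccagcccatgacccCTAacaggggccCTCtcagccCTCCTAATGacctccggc
MT-CO1: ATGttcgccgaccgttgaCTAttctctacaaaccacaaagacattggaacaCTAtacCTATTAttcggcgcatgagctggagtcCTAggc
MT-CO2: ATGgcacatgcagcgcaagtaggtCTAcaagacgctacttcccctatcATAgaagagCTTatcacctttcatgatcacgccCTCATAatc

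Within these 30 codons MT-ND1 has 8 leucine codons, MT-CO1 5, MT-CO3 4, and MT-ND2, MT-CYB and MT-CO2 3 each. Reading frames overlap at 3 places on the strand, which matters for how reads can be assigned between them. MT-ATP6 and MT-CO3, both members, share 1 base (MT:9207). MT-ATP8 and MT-ATP6 share 46 bases and MT-ND4L and MT-ND4 share 7, shown in capitals with 15 bases on either side.
MT-ATP8/MT-ATP6: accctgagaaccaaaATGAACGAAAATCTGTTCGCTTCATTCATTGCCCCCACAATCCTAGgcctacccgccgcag
MT-ND4L/MT-ND4: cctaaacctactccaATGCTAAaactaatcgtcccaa

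Values are the authors' normalised counts, which summed to between 14.9 and 20.5 M per library. From the smallest step between values, roughly 11.9 to 36.0 M reads were estimated per library, an approximation in which 45.0% to 81.7% of values came out whole within 0.1. All 13 T cell markers on the list fixed for these cells were present, with a summed normalised count of 56005 to 93830. Of the myeloid list, 4 of 5 markers stayed under a mean of 10 in every table and the list summed to at most 242, while the 5 epithelial or fibroblast markers summed to between 281 and 6787. In 4 libraries, BCAA control 1, phenylalanine control 1, phenylalanine-restricted 2 and valine-restricted 2, ribosomal protein mRNA took 11.9%, 11.9%, 9.48% and 7.52% of the total, the highest of each group, and member counts without these libraries are given beside the results where they differ.

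MT-CO1 was the most abundant of the 10 per kilobase in all 12 groups, with group means of 53739 to 132591 normalised counts per kb. MT-CO2, MT-CO3 and MT-ATP6 took ranks 2 to 4 in every group. MT-ND5 was 9th or 10th throughout, at 6912 to 12670 per kb, and MT-ND1 was between 8th and 10th. The catalytic core of complex IV was therefore represented by more RNA per length than the complex I subunits in every condition. Tables were normalised separately, so these levels are compared within a table and their ranges only set side by side.

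Summed, the 10 mRNAs took 0.948% to 4.2% of a library's normalised count over the 59 libraries, a 4.43-fold range. The share was 2.75% ± 0.649 (SD, n = 5) with leucine at 25% and 1.86% ± 0.166 (SD, n = 4) in the BCAA control, a difference of 0.885 percentage points. For phenylalanine the means were 3.07% ± 0.602 and 2.14% ± 0.396, and for tryptophan 1.99% ± 0.413 and 1.41% ± 0.184 (SD, n = 5 each). Under methionine restriction the share was 1.78% ± 0.425 against 1.35% ± 0.393 (SD, n = 5 each). Restricted means were above control means in 6 of the 7 comparisons, and the 2 groups overlapped in all 7.

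Histidine went the other way, with 2.13% ± 0.251 against 2.43% ± 0.964 in its controls (SD, n = 5 each). Those 5 controls fell into libraries at 1.31% and 1.55% and libraries from 2.80% to 3.58%. Valine had the widest restricted group, 2.63% ± 1.08 (SD, n = 5), from 1.16% in library 4 to 4.2% in library 2. Isoleucine gave 2.34% ± 0.514 (SD, n = 5). Ordered by mean, each of the 12 groups lay within 1 SD (the larger of the 2) of the next, so no neighbouring pair in the order differed beyond its spread. In bulk RNA, a change in how many cells hold a transcript and in how much each cell holds cannot be told apart.

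**Figure D1:**
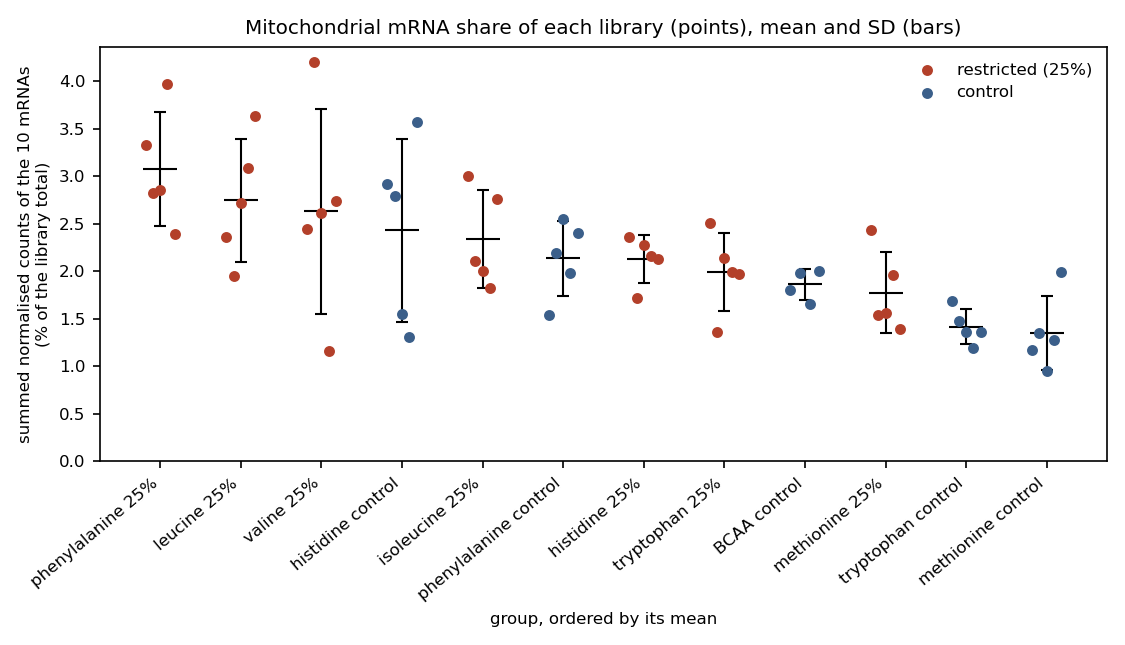
Summed normalised counts of the 10 mRNAs as a percentage of each library's total (y axis) by group (x axis, highest mean first), with each library as a point and the mean and SD as bars. Restricted groups are red and control groups blue. Single libraries range from 0.948% to 4.2%, and the restricted and control points of each amino acid overlap.

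Within a library the 10 mRNAs tended to be high or low together. In 37 of the 59 libraries all 10 lay on one side of their group's mean log2 value, 17 above and 20 below, and in 49 at least 9 did. The farthest below was valine-restricted library 4, where the median member was 1.19 log2 units under its group mean, and the farthest above was valine-restricted library 2, at 0.81. The 10 values of a library share its normalisation and are not independent. The same count was not made for other sets of genes.

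A gene was called at a Benjamini-Hochberg adjusted p below 0.05 in limma over all tested genes of a table, with fold changes taken between means of log2(normalised count + 1). Members were called higher in 6 of 10 cases under methionine restriction, 4 under leucine, 2 under tryptophan and 1 under phenylalanine. None was called under histidine, isoleucine or valine restriction, and none was called lower in any of the 7 comparisons. The median log2 fold change of the 10 was 0.68 for leucine, 0.65 for methionine, 0.38 for phenylalanine, 0.27 for valine, 0.21 for isoleucine, 0.14 for tryptophan and -0.10 for histidine, while the median over all tested genes lay between -0.0071 and 0.034.

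**Figure D2:**
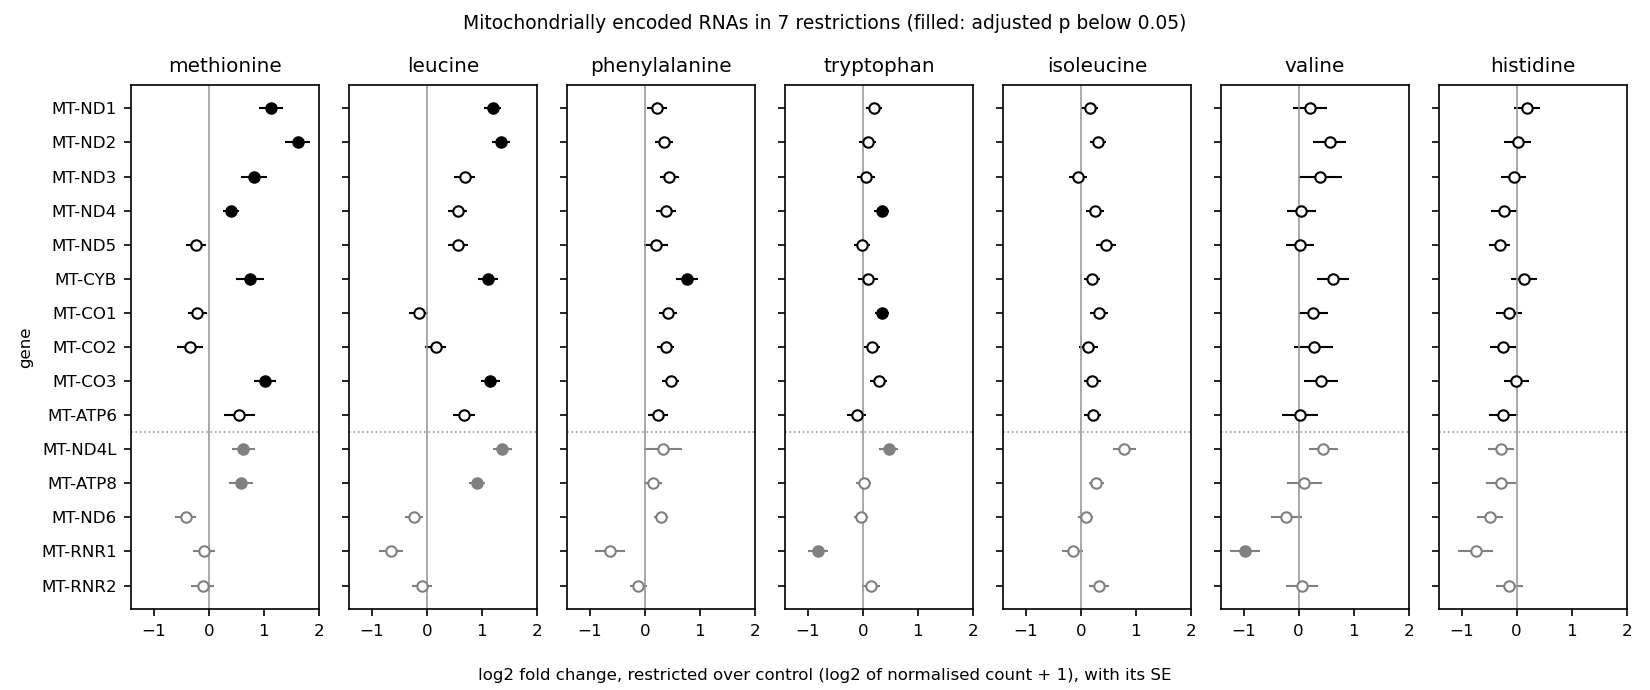
Log2 fold change, restricted over control, with its standard error (x axis) for the 10 mRNAs and, under the dotted line, 5 other mitochondrially encoded RNAs (y axis), in a panel for each restriction. Filled points had an adjusted p below 0.05. MT-ND1, MT-ND2, MT-CYB and MT-CO3 are filled in both the methionine and the leucine panels. MT-CO1 and MT-CO2 are unfilled in both, between -0.34 and 0.16.

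Leucine restriction was accompanied by higher MT-ND1, MT-ND2, MT-CYB and MT-CO3, each more than 2-fold by the ratio of means, without a called change in MT-CO1 or MT-CO2. Those 4 of 10 calls stand beside 7.75% of the 16488 genes tested in that table called in either direction, 3.41% higher and 4.33% lower. MT-ND1, a membrane subunit at the quinone end of complex I, had normalised counts of 21048, 20924, 26232, 28984 and 34168 in the restricted libraries and 12302, 11067, 9694 and 12216 in the controls. Every restricted library was above every control, with a log2 fold change of 1.20 ± 0.15 (SE) and adjusted p = 0.000828. For MT-ND2, a proton-pumping subunit of complex I, restricted libraries held 28908, 24622, 32435, 39053 and 44582 and controls 13823, 13107, 11209 and 14041. Its groups did not overlap either, and it had the largest change of the 10 in this comparison, 1.35 ± 0.16 (adjusted p = 0.000505).

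The other complex I members had smaller changes. MT-ND4 read 34588, 35103, 52665, 52596 and 58677 against 32263, 30379, 27571 and 33835, so the groups separated, but its log2 fold change of 0.56 ± 0.17 had adjusted p = 0.0608. MT-ND3 (0.69, adjusted p = 0.0509) and MT-ND5 (0.56, adjusted p = 0.0705) missed the threshold with overlapping groups. Both MT-ND4 and MT-ND5 encode proton-pumping subunits of the membrane arm.

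MT-CYB, cytochrome b and the only complex III subunit made in the organelle, had 42287, 33796, 42100, 54630 and 68953 normalised counts in the restricted libraries. Its controls had 23162, 21915, 18173 and 23403. The groups did not overlap, and MT-CYB rose by 1.12 ± 0.18 on the log2 scale (adjusted p = 0.00386).

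The 3 complex IV mRNAs did not move together. MT-CO3, the structural subunit III, had 46544, 39879, 52524, 61540 and 69512 in the restricted libraries against 30433, 21846, 19848 and 24074, without overlap, a log2 fold change of 1.16 ± 0.17 (adjusted p = 0.0023). MT-CO1, the catalytic subunit that holds the heme-copper centre, had 91183, 82168, 110755, 124217 and 150940 against 128285, 125324, 103155 and 129468. Its restricted libraries lay both below and above the controls, and the log2 difference of -0.15 had a 95% interval of -0.53 to 0.23. MT-CO2, which takes electrons from cytochrome c, had 38393, 36874, 43610, 51063 and 61030 against 56496, 38488, 31026 and 40331, a log2 difference of 0.16 with an interval of -0.25 to 0.57. MT-ATP6, the proton channel subunit of the ATP synthase, had a log2 fold change of 0.67 ± 0.20 with adjusted p = 0.0597 and overlapping groups.

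BCAA control 1 held the highest control value of MT-ND3 (7270, with 3923 to 4420 in the others) in the leucine table, and also that of MT-CO2 and MT-CO3. Without that library 7 members were called instead of 4, adding MT-ND3, MT-ND4 and MT-ATP6, and without leucine-restricted library 2 the number was 8. The share of all genes called without these libraries is not given here. The 4 members called with all libraries remained called in all 20 alternative analyses, their log2 fold changes running from 0.98 (MT-CYB) to 1.46 (MT-ND2). In the same libraries the chaperone HSPA5, a marker of the endoplasmic reticulum stress state, was 4297 ± 356 (SD, n = 5) against 50550 ± 1756 (SD, n = 4). Ribosomal protein mRNA took 6.07% ± 0.566 of the restricted and 8.19% ± 2.51 of the control libraries. The part of either in the members' values was not tested.

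Under methionine restriction 6 of 10 members were called higher, beside 53.2% of 16889 genes called in either direction, 27.8% higher and 25.4% lower. They were MT-ND1, MT-ND2, MT-ND3, MT-ND4, MT-CYB and MT-CO3, while MT-ND5, MT-CO1, MT-CO2 and MT-ATP6 were not called. MT-ND2 read 37640, 22830, 20468, 34488 and 21220 with methionine at 25% and 7057, 9921, 5964, 7619 and 14959 in the controls, 3.00 times as much on average. Its groups did not overlap, and the log2 fold change of 1.62 ± 0.23 (adjusted p = 4.5e-05) was the largest of any member in the 7 comparisons. MT-ND1 had 22081, 14073, 12580, 19142 and 12450 against 5936, 7812, 5022, 6554 and 12130, also without overlap, and rose by 1.13 ± 0.21 (adjusted p = 0.000511).

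For MT-CO3 the restricted libraries held 43090, 27194, 26917, 36314 and 24472 normalised counts and the controls 13429, 16122, 10746, 13801 and 25615. Only control 5 reached into the restricted range, and MT-CO3 rose by 1.02 ± 0.20 (adjusted p = 0.000778). MT-CYB had 30829, 19578, 17824, 25269 and 12784 against 10548, 14446, 7115, 11946 and 20031, with a log2 fold change of 0.75 ± 0.26 (adjusted p = 0.0236). Here restricted library 5 lay below 2 of the controls and control 5 above 3 of the restricted libraries. MT-ND3, a small membrane subunit, rose by 0.82 ± 0.23 (adjusted p = 0.0090) and MT-ND4 by 0.40 ± 0.14 (adjusted p = 0.0289), both with overlapping groups.

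MT-CO1 had 110189, 69094, 74911, 88830 and 71300 in the restricted libraries and 81332, 95617, 74476, 89428 and 143075 in the controls. The groups overlapped throughout, and the log2 difference was -0.21 with a 95% interval of -0.57 to 0.15. MT-CO2 gave -0.34 (-0.84 to 0.17), MT-ND5 -0.24 (-0.64 to 0.16) and MT-ATP6 0.56 (-0.035 to 1.15). MT-ND1, MT-ND2, MT-ND3 and MT-CO3 remained called in all 20 alternatives. MT-ND4 lost its call in 7 of 20, among them without methionine-restricted library 1 or 4 or methionine control 1, 2, 3 or 4 (adjusted p up to 0.0803). MT-CYB lost it in 4 of 20, without restricted library 1 or 4, without control 3, and without an intensity trend (adjusted p up to 0.0655). Ribosomal protein mRNA took 3.13% ± 0.211 of the restricted and 7.10% ± 0.629 of the control libraries (SD, n = 5 each), and HSPA5 was 6911 ± 544 against 8653 ± 559. Other state markers differed more. HSPA6 was 5.79 to 15.6 in the restricted and 1285 to 1713 in the control libraries, and TXNIP 13184 to 14724 and 500 to 538. Their part in the result was not tested.

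The 4 mRNAs called under leucine restriction were all among the 6 called under methionine restriction, and these 2 comparisons share no library. Of all tested genes 27.8% were called higher under methionine restriction, and members of one library are not independent of each other. The overlap of calls over all genes was not computed. The plot of values by library shows both comparisons.

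**Figure D3:**
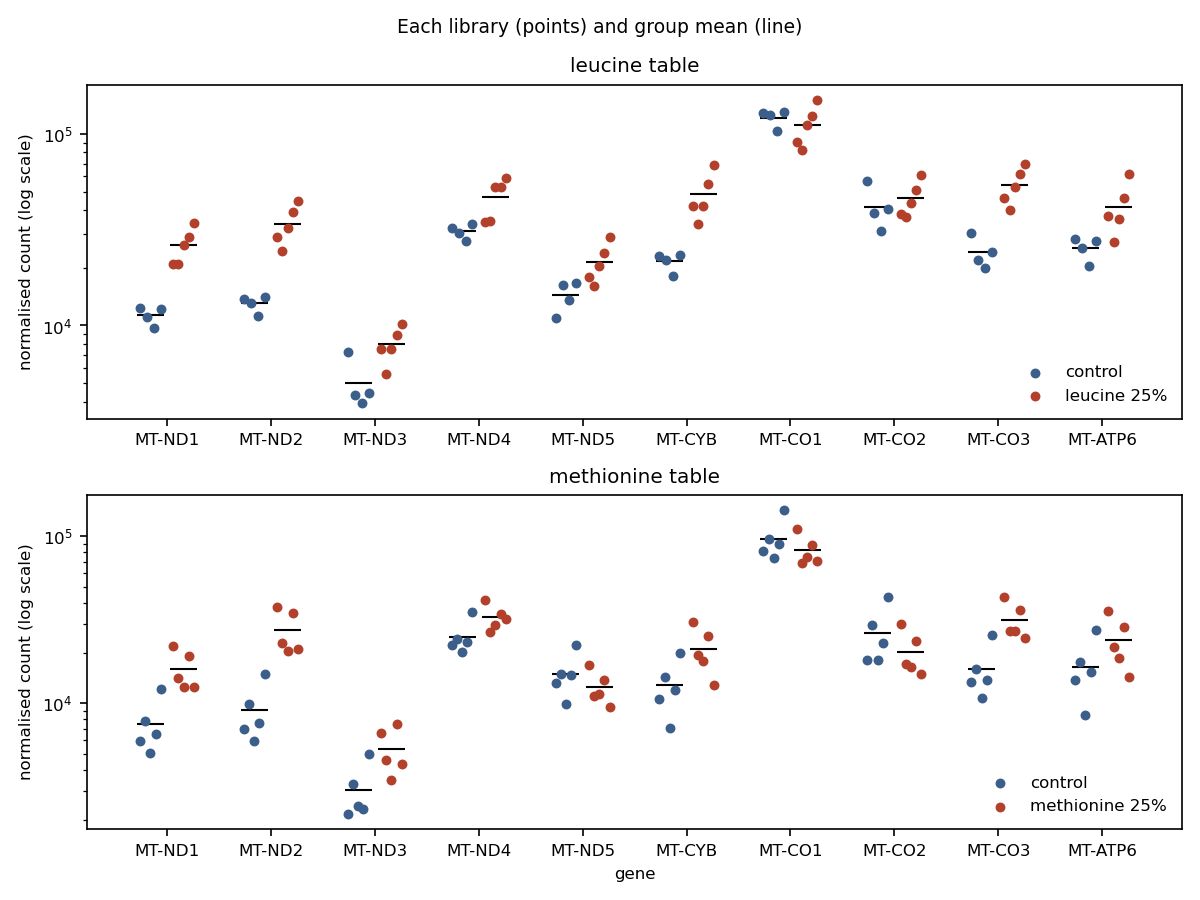
Normalised counts (y axis, log scale) of the 10 mRNAs (x axis) in each library of the leucine table (top) and the methionine table (bottom), controls in blue and restricted libraries in red, with a line at each group mean. MT-ND1 and MT-ND2 separate completely in both tables, and MT-CO1 overlaps in both.

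Phenylalanine restriction gave positive log2 fold changes for all 10 members, 0.21 (MT-ND5) to 0.77 (MT-CYB), of which MT-CYB alone was called, beside 10.2% of 17021 genes called in either direction, 4.11% higher and 6.09% lower. MT-CYB had 42275, 37483, 34986, 52963 and 29329 in the restricted libraries against 14102, 25096, 28691, 24012 and 24410. The groups did not overlap, with adjusted p = 0.0296. Phenylalanine control 1 was the lowest control for this mRNA and for MT-ND1 (9493, with 15114 to 17047 in the others). The MT-CYB call was lost in 8 of 21 alternatives, 6 of which left out a single library (restricted 1, 3 or 4, or control 2, 4 or 5), with adjusted p up to 0.0771. Without phenylalanine-restricted library 2 and control 1, 2 members were called, and without control 1 alone or restricted 5 alone the number was also 2. Among the other 9, MT-CO3 had the next smallest adjusted p, 0.0679, with a log2 fold change of 0.47 ± 0.15. MT-CO1 (0.42) and MT-CO2 (0.38) had values close to those of MT-ND3 (0.44) and MT-ND4 (0.39). HSPA5 was 7243 ± 206 in the restricted and 42265 ± 1738 in the control libraries, and ribosomal protein mRNA took 6.13% ± 1.88 and 8.50% ± 1.95 (SD, n = 5 each). Their part in the members' values was not tested.

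Tryptophan restriction called MT-ND4 and MT-CO1 higher, 2 of 10 beside 51.3% of 16630 genes called in either direction, 23.6% higher and 27.7% lower, so that the members' share of calls is near the background for higher calls. MT-ND4 had 33744, 24241, 36876, 28729 and 26602 in the restricted libraries and 32038, 23038, 23306, 19258 and 21162 in the controls, a log2 fold change of 0.34 ± 0.13 (adjusted p = 0.0424). MT-CO1 had 157164, 90514, 137212, 125426 and 126834 against 119748, 104931, 93512, 82476 and 93100, a log2 fold change of 0.36 ± 0.13 (adjusted p = 0.032). For both mRNAs the groups overlapped, restricted library 2 being the lowest of its group and control 1 the highest of its own. Each call was lost in 9 of 20 alternatives, most of them leaving out a single library. Without restricted library 2 the number called was 8, and without restricted library 1, 3 or 4 or control 3, 4 or 5 it was 0. The share of all genes called in those alternatives is not given here. The other 8 members ran from -0.11 (MT-ATP6, 0.13 with libraries scaled to equal totals) to 0.29 (MT-CO3) on the log2 scale. HSPA5 was 3789 ± 128 against 7577 ± 229 and ribosomal protein mRNA 4.79% ± 0.138 against 4.66% ± 0.16 (SD, n = 5 each), and their part in the members' values was not tested.

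Isoleucine, valine and histidine restriction gave no called member, beside 0%, 12.5% (5.13% higher, 7.36% lower) and 27.9% (15.6% higher, 12.3% lower) of tested genes called in either direction. At an unadjusted limma p below 0.05, 872 of 16623 genes passed for isoleucine, 4688 of 16771 for valine and 7156 of 17740 for histidine. Of the members, 1 passed for isoleucine and 0 for valine and for histidine. For isoleucine that was MT-ND5, with 27166, 18922, 16135, 16121 and 25703 against 11465, 17124, 14226 and 17324 and a log2 difference of 0.45 ± 0.18 (adjusted p = 0.797). Restricted libraries 1, 2 and 5 stood above all 4 controls, and libraries 3 and 4 lay among them. HSPA5 was 46463 to 54660 in the isoleucine-restricted libraries and 50867 to 54789 in the BCAA controls of that table.

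For valine the largest difference was that of MT-CYB, 0.63 ± 0.30, from 35917, 62364, 37773, 15945 and 41816 in the restricted libraries and 25048, 23160, 19358 and 24966 in the controls. Library 4 was below every control and the other 4 were above every control. MT-ND2 had the same arrangement, with 8528 in library 4, 21477 to 33918 in the other restricted libraries and 11946 to 14988 in the controls. Without valine-restricted library 4, 2 members were called. HSPA5 was 7795 ± 523 in the valine-restricted libraries against 53874 ± 2334 in the BCAA controls of that table, and its part in the result was not tested.

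For histidine the members' log2 differences ran from -0.31 (MT-ND5) to 0.19 (MT-ND1). MT-ND5 had 19291, 13298, 16172, 17644 and 16833 in the restricted libraries, inside the range of the controls, 12891 (control 4) to 29085 (control 5). The control group spread widely for all 10. Leaving out histidine control 4 gave 1 called member, MT-ND5, which was called lower (adjusted p = 0.0402 in that limma fit). HSPA5 was 3244 to 3956 in the restricted libraries and 6441 to 10272 in the controls. HSPA6 was 19.0 to 152 against 2370 to 3014, and TXNIP 11438 to 14062 against 369 to 1534. The part of these markers in the result was not tested.

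The 3 mitochondrially encoded mRNAs outside the 10 and the 2 rRNAs were measured in the same tables. Under leucine restriction MT-ND4L, a small complex I subunit, rose by 1.37 ± 0.18 (adjusted p = 0.000909) and MT-ATP8, a small subunit of the ATP synthase, by 0.91 ± 0.15 (adjusted p = 0.00359). MT-ND4L and MT-ND4 are known to be carried on a common mRNA, as are MT-ATP8 and MT-ATP6, so their rows share a source, and the values differ within the first pair (1.37 and 0.56). The methionine comparison also called MT-ND4L (0.62 ± 0.21, adjusted p = 0.0208) and MT-ATP8 (0.58 ± 0.23, adjusted p = 0.0415). MT-ND4L was called under tryptophan restriction as well (0.48, adjusted p = 0.0345).

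MT-RNR1 and MT-RNR2, which lie upstream of MT-ND1 on the same strand, were not called under leucine (-0.64 and -0.09) or methionine restriction (-0.09 and -0.11). MT-RNR1 fell by 0.81 ± 0.19 under tryptophan restriction (adjusted p = 0.00216), where its groups did not overlap, and by 0.97 ± 0.28 under valine restriction (adjusted p = 0.0383). MT-RNR2 was not called in any of the 7. MT-ND6, the only mRNA on the - strand, was not called in any comparison either, with log2 differences from -0.49 (histidine) to 0.29 (phenylalanine). Whether the quantification used strand is not known from the sources used here, so reads of MT-ND6 and of the opposite strand may not be separable.

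Read along the strand, the leucine log2 fold changes were 1.20 at MT-ND1, 1.35 at MT-ND2, -0.15 at MT-CO1, 0.16 at MT-CO2, 0.67 at MT-ATP6, 1.16 at MT-CO3, 0.69 at MT-ND3, 0.56 at MT-ND4, 0.56 at MT-ND5 and 1.12 at MT-CYB. For methionine the same order gave 1.13, 1.62, -0.21, -0.34, 0.56, 1.02, 0.82, 0.40, -0.24 and 0.75. The neighbours MT-CO1 and MT-CO2 were thus flanked on both sides by mRNAs with larger values in both comparisons.

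Ratios within a library do not depend on its scaling, and MT-CO1, the most abundant, served as the denominator. All 9 ratios share this denominator, so a change in MT-CO1 moves all of them together. In the leucine comparison MT-CO1 had the lowest log2 fold change of any member (-0.15). All 9 mean differences were therefore bound to be positive there, and their direction is not a separate result. How many other genes would have non-overlapping ratios was not counted. With leucine at 25%, 8 of the 9 ratios were higher in every restricted library than in every control. The log2 ratio of MT-ND2 to MT-CO1 was -1.72 in restricted libraries (range -1.77 to -1.66) and -3.22 in controls (-3.26 to -3.20), a difference of 1.5 that exceeds the range inside either group. MT-CO3 went from -2.35 to -1.04 and MT-CYB from -2.49 to -1.22. MT-CO2 was the exception, with a difference of 0.31 and overlapping groups. MT-ND4, MT-ND5, MT-ND3 and MT-ATP6, which had missed the threshold for the level, had non-overlapping ratios here (differences of 0.71, 0.71, 0.84 and 0.82). As parts of the sum of all members, these same mRNAs overlapped between the groups, so their separation depends on the denominator.

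With methionine at 25%, 7 of 9 ratios were higher without overlap. Only MT-CO2 (-0.34) and MT-ND5 (-0.24) had a lower log2 fold change than MT-CO1 (-0.21), so the other mean differences were bound to be positive. MT-ND2 again differed most, from -3.45 ± 0.18 to -1.63 ± 0.19 (SD, n = 5 each), and MT-CO2 (-0.13) and MT-ND5 (-0.03) overlapped. As part of the 10-member sum, MT-CO1 fell from 42.8% ± 2.01 to 30.5% ± 1.91 with methionine restriction and from 39.4% ± 1.42 (n = 4) to 25.5% ± 0.440 (n = 5) with leucine restriction. MT-ND2 went from 3.93% ± 0.315 to 9.89% ± 0.808 and from 4.23% ± 0.139 to 7.74% ± 0.170 in the same comparisons. Parts of a sum are bound to each other, so a larger part for some members makes the others' smaller.

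Elsewhere the ratios moved less. Histidine restriction had 4 ratios higher without overlap, by 0.13 (MT-CO3) to 0.33 (MT-ND1), although no level was called. Tryptophan restriction had 5 lower without overlap, the largest at MT-ND5 (-0.37), and isoleucine 3 lower, the largest at MT-ND3 (-0.38). Phenylalanine had MT-CYB higher by 0.36, and valine had MT-CYB higher by 0.36 and MT-ND4 lower by 0.22. These ratios are given as descriptions, without a test.

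**Figure D4:**
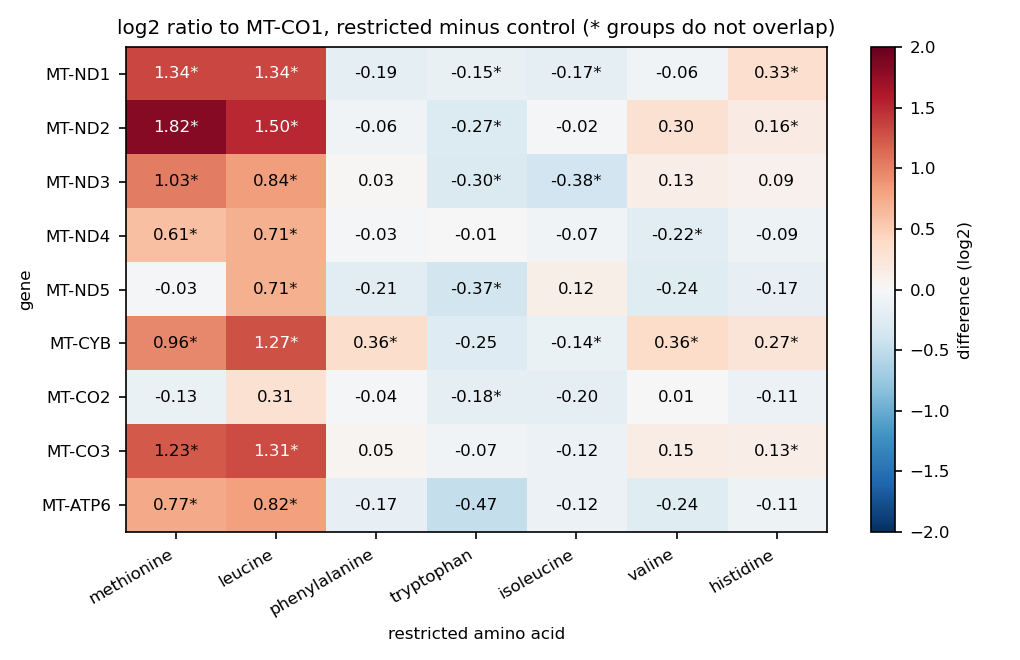
Difference in the log2 ratio of each mRNA to MT-CO1, restricted minus control (colour and printed value), for 9 mRNAs (y axis) and 7 restrictions (x axis). An asterisk marks groups that do not overlap. The methionine and leucine columns hold differences of up to 1.82 and 1.5 at MT-ND2, and no difference in the other columns exceeds 0.47 in size.

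Differences between responses were tested as interactions for the 18 pairs of amino acids that have separate controls. In 28 of the 180 tests of a member the 2 responses differed (adjusted p below 0.05 over all genes of a fit), all in pairs that include leucine or methionine (with libraries scaled to equal totals, 2 of the calls were in histidine against tryptophan). That is 15.6% of the member tests, beside 28.3% of the tests of all genes over the same pairs. MT-ND1 and MT-ND2 differed in 8 of 18 pairs each, MT-CO3 in 5, MT-ND3, MT-ND5 and MT-CYB in 2 each and MT-ND4 in 1. MT-CO1, MT-CO2 and MT-ATP6 differed in 0 of 18, with smallest adjusted p-values of 0.0837, 0.0847 and 0.0872. The control groups of a pair could differ in HSPA5. It was 39965 to 44230 in phenylalanine controls and 48233 to 52165 in BCAA controls (leucine table). In histidine controls it was 6441 to 10272, in methionine controls 8105 to 9536 and in tryptophan controls 7321 to 7818. The state marker HSPA6 was 2370 to 3014, 1285 to 1713 and 8.03 to 22.6 in these controls, in the same order. In phenylalanine controls HSPA6 was 946 to 1181 and in BCAA controls 1339 to 1788. The marker TXNIP was 369 to 1534 in histidine, 500 to 538 in methionine and 2580 to 3233 in tryptophan controls. In phenylalanine controls TXNIP was 253 to 671 and in BCAA controls 258 to 338. Tables were normalised separately, so these ranges are only set side by side. The part of these control states in the interactions was not tested.

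Leucine and histidine differed in 6 members, beside 19.3% of all genes, each with the higher response to leucine. The number depended on the libraries and the scaling. It was 1 without replicate number 5, 2 without number 2, 3 without number 1 or 4, and 3 with TMM factors or with no filter on low values. Of the 6, MT-ND4, MT-ND5 and MT-CYB had adjusted p-values between 0.0394 and 0.0494. MT-ND2 changed by 1.35 with leucine and 0.02 with histidine, a difference of 1.33 ± 0.34 (adjusted p = 0.0033), and MT-CO3 by 1.16 and -0.01, a difference of 1.17 ± 0.31 (adjusted p = 0.0056). Leucine also exceeded tryptophan in 4 members (38.9% of all genes) and phenylalanine in 2 (12.3%). Methionine exceeded histidine in 4 (32.7%), isoleucine in 4 (38.9%), tryptophan in 3 (49.7%), phenylalanine in 2 (37.5%) and valine in 2 (33.9%). The pairs with methionine thus have member counts close to the background or under it.

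Leucine and methionine differed from each other in 1 member, MT-ND5, which had 0.56 with leucine and -0.24 with methionine, a difference of 0.80 ± 0.31 (adjusted p = 0.0347), beside 40.1% of all genes. This call was lost with TMM factors, with either equal-total scaling, without the 4 libraries with the highest ribosomal protein share, and without replicate number 4 or 5. Without those 4 libraries the count also became 2 for methionine against isoleucine, 4 for methionine against tryptophan and 5 for tryptophan against leucine. The remaining 9 pairs had 0 members called, with 2 of their 90 tests at an unadjusted p below 0.05. The share of all genes called was 15.3% for histidine against phenylalanine, 37.2% for histidine against tryptophan, 36.4% for phenylalanine against tryptophan, 13.9% for histidine against isoleucine, 12.4% for phenylalanine against isoleucine and 31.4% for tryptophan against isoleucine. Against valine it was 18.1% for histidine, 4.91% for phenylalanine and 37.0% for tryptophan. Leaving out all libraries of 1 replicate number reduced the 28 to between 12 (without number 4) and 22. Isoleucine, leucine and valine were not tested against each other because they share their controls. Side by side, MT-ND2 changed by 0.31, 1.35 and 0.56 and MT-CO3 by 0.21, 1.16 and 0.41 in those 3 comparisons.

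The nuclear genes that act on mitochondrial RNA or complete the same complexes were followed in 11 lists with 199 tested genes. With methionine at 25%, 63 of 199 were higher and 50 lower, beside 27.8% and 25.4% of all tested genes. The RNA processing and stability list had 14 of 27 higher and 3 lower (median log2 fold change 0.28), among them the exonuclease REXO2 (1.03), the pseudouridine synthase TRUB2 (0.92) and the poly(A) polymerase MTPAP (0.59). LRPPRC, which binds and stabilises mitochondrial mRNAs, rose by 0.59 ± 0.13 (adjusted p = 0.00158), while its partner SLIRP had 0.28 (adjusted p = 0.141). The transcription factors TFAM (0.51) and TFB2M (0.62) rose, and the RNA polymerase POLRMT had 0.05 (adjusted p = 0.636). Of the nuclear complex I subunits 5 of 37 were higher and 13 lower, for example NDUFS5 at -1.25, of complex III 2 of 9 higher and 5 lower (UQCRC1 -1.39), of complex IV 2 of 11 higher and 6 lower (COX4I1 -1.27), and of complex V 1 of 18 higher and 8 lower (ATP5MC2 -0.92).

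Leucine restriction called 6 of the 199 higher and 2 lower, beside 3.41% and 4.33% of all tested genes. MTPAP (0.51), the FASTK family RNA-binding protein FASTKD2 (0.52) and the ribosomal protein PTCD3 (0.37) rose in the processing list, and TFAM rose by 0.45 (adjusted p = 0.0365). LRPPRC had 0.42 (adjusted p = 0.176), SLIRP 0.23, POLRMT 0.01 and TFB2M -0.01. No nuclear subunit of complexes I, III or V was called (0 of 37, 0 of 9 and 0 of 18, with 3, 2 and 2 at an unadjusted p below 0.05), at medians of -0.10, -0.11 and -0.13, and COX6B1 of complex IV fell by 1.02. At that unadjusted threshold 4171 of the 16488 genes tested passed.

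Under tryptophan restriction 142 of 199 were lower and 8 higher, beside 27.7% of all tested genes called lower. LRPPRC (-0.50), SLIRP (-1.15), POLRMT (-0.60), TFAM (-0.73) and TFB2M (-0.52) were all lower. The processing list had 21 of 27 lower and the transcription and genome maintenance list 14 of 16, while 0 of the 10 mitochondrially encoded mRNAs were lower. Of the nuclear complex I subunits 27 of 37 were lower.

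Histidine restriction called 28 of 199 higher and 42 lower, beside 15.6% and 12.3% of all tested genes. SLIRP (0.57), TFAM (0.40) and TFB2M (0.37) were among the higher, and the complex I subunit NDUFS5 (-0.79) and the complex IV subunit COX6B1 (-0.75) among the lower. The processing list had 2 of 27 higher and 3 lower. The transcription and genome maintenance list had 5 of 16 higher and 1 lower. For valine 18 were higher, TFAM (0.61) among them, and 9 lower (5.13% and 7.36% of all tested genes). For phenylalanine the counts were 8 and 7 (4.11% and 6.09%). For isoleucine they were 0 and 0, with 11 of 199 at an unadjusted p below 0.05 beside 872 of 16623 genes tested. OXA1L, the insertase that places mitochondrially made proteins into the inner membrane, was called lower under methionine (-0.94), tryptophan (-1.25), leucine (-0.63), valine (-0.95), phenylalanine (-0.75) and histidine (-0.36) restriction.

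**Figure D5:**
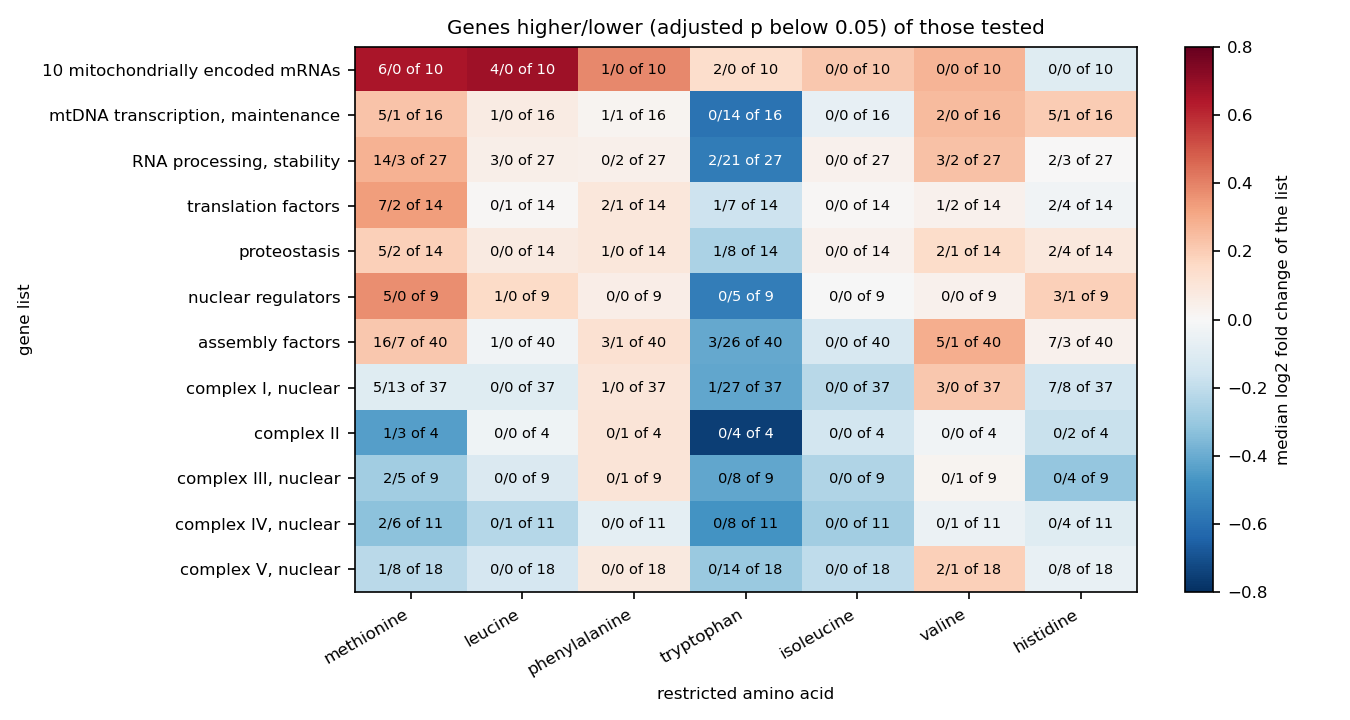
Number of genes higher/lower (adjusted p below 0.05) of those tested, printed in each cell, and median log2 fold change (colour) for the 10 mitochondrially encoded mRNAs (top) and 11 lists of nuclear genes (y axis) in 7 restrictions (x axis). The tryptophan column has 21 of 27 processing genes lower and 0 of 10 mitochondrially encoded mRNAs lower.

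Among 10498 genes with a mean of at least 100 in all 7 tables, the 5 nuclear genes whose 7 log2 fold changes lay closest to the members' medians were ZNF136 (root mean square difference 0.137), TYW5 (0.147), ZNF227 (0.148), FAN1 (0.15) and SECISBP2L (0.153). By the same measure the members themselves lay 0.133 (MT-ND3) to 0.462 (MT-CO1) from their own medians. MT-ND2, at 0.461, was nearly as far from the medians as MT-CO1, by a measure without direction. For methionine and leucine MT-ND2 lay above the medians of 0.65 and 0.68 (1.62 and 1.35) and MT-CO1 below them (-0.21 and -0.15). For isoleucine both lay above the median of 0.21 (0.31 and 0.34).

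The restricted amino acids differ in how often these mRNAs encode them. Over all 10, histidine makes up 2.67% of codons, tryptophan 2.78% and valine 3.74%, and MT-ND3 has 0 histidine codons. Leucine makes up 12.1% of the codons of MT-CO1, the lowest, and 24.3% of those of MT-ND3, the highest, and 17.2% over all 10. For MT-CO3 it is 13.0%. Methionine runs from 3.95% in MT-CYB to 7.20% in MT-ND2, and MT-CO1 has 6.24%. A link between codon content and the changes in level was not tested. All 7 restricted amino acids together account for 43.2% (MT-CO2) to 52.2% (MT-ND3) of codons.

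Nuclear copies of mitochondrial DNA share sequence with several members, so the authors' quantification could divide reads between rows. Of all 31-base words in the transcript, 66.7% of those of MT-CO1, 63.7% of MT-ATP6, 56.9% of MT-ND2, 50.5% of MT-CO2 and 45.0% of MT-CO3 also occur in another annotated gene, against 28.2% for MT-ND1, 4.95% for MT-CYB and 3.48% for MT-ND3. The rows of the pseudogenes nonetheless held at most 0.672% of a member's signal for 9 of the 10, averaged over the libraries of a table. MT-ATP6 was different, with 6.12% to 9.37% by table and up to 24.6% in a single library, nearly all at MTATP6P1, and MT-CO2 reached 6.57% in a single library. MTATP6P1 itself was called higher under leucine restriction (log2 fold change 1.10, adjusted p = 0.0319), and with the pseudogene rows added MT-ATP6 had a log2 fold change of 0.72 there and adjusted p = 0.0376.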

How the data were processed

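RNA of 59 Jurkat libraries was sequenced. Per the labels' protocols, strand-specific libraries were made from total RNA purified on columns; RNA selection, annotation release and strand setting are not known from the sources used here. Each deposited value is an expression signal, a normalised count of a gene that the authors made separately for each of the 7 amino acids; per the submitters' processing notes, kallisto 0.50.1 and DESeq2 1.44.0 were used with GRCh38, and FastQC 0.11.9 is listed too. Whole reads could not be recovered from them, so no count model was used.

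Genes with a mean of 10 or more were fitted with limma 3.58.1 (R 4.3.3) on log2(value + 1), restricted against control libraries, with an intensity trend, two-sided tests and Benjamini-Hochberg adjustment over all genes of a table. Interactions were fitted jointly with limma for tables with separate controls. Shares, within-library ratios and levels per kb were described without a test. The scripts were tested on simulated data.

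The members and the gene lists were chosen with earlier results of these data known. Named genes were the members, the other mitochondrially encoded RNAs, 5 regulators (LRPPRC, SLIRP, POLRMT, TFAM, TFB2M) and, in each list, some called genes. By plan these were called genes with the smallest adjusted p, which are not always those with the largest changes. The regulators are not given for every comparison. Likeness was the root mean square difference to the members' median changes over 7 comparisons among genes with a mean of at least 100. Alternatives were pseudocounts of 0.25 and 5, a minimum mean of 100 or none, TMM factors, equal totals with and without mitochondrially encoded genes, members summed with their pseudogenes, a replicate block, no trend, and leaving out libraries. OXA1L, COX6B1 and the values of single libraries beyond the rule were picked after they were seen. Some marker lists are not reported here.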

Additional observations from a re-analysis of the deposited data

Results flagged for a closer look

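Of 132 sets of 4 or 5 libraries examined, 5 held a library far from the others by Dixon's criterion, where chance gives about 1 in 20. MT-ND4 was 27369 in histidine-restricted library 2, below the 37050 to 39614 of the other 4. In methionine control 5 it was 35111, above 20215 to 24242 in the other controls, and that library was also the highest control for the 9 other members. MT-ND1 was 9493 in phenylalanine control 1, below 15114 to 17047. In the isoleucine table MT-ND3 was 7606 in BCAA control 1, above 4105 to 4597, and MT-CO1 was 107859 in BCAA control 4, below 131536 to 134536.

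The response of members differed in 9 of 18 pairs of amino acids by limma's interaction test with Benjamini-Hochberg adjustment. The number of members, with the share of all genes in parentheses, was 6 for histidine against leucine (19.3%). It was 4 for histidine against methionine (32.7%), methionine against isoleucine (38.9%) and tryptophan against leucine (38.9%), and 3 for methionine against tryptophan (49.7%). It was 2 for methionine against phenylalanine (37.5%), phenylalanine against leucine (12.3%) and methionine against valine (33.9%), and 1 for methionine against leucine (40.1%).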

How the results depend on the processing

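The labels do not say that replicate numbers pair libraries: of 32 same-numbered pairs the correlation of deviations exceeded 0.1 in 3 (range -0.19 to 0.19), and 7 correlated best with their own number. With the replicate block, in which restricted library 2 of the BCAA comparisons has no control of its number and adds nothing, 7 members were called for leucine and 0 for phenylalanine, and the valine log2 changes of MT-ND1, MT-ND4, MT-ND5, MT-CO2 and MT-ATP6 became -0.0022, -0.11, -0.095, -0.014 and -0.22. With equal totals, with or without mitochondrially encoded genes, 3 were called for phenylalanine, 5 for tryptophan and 7 for leucine. Those scalings moved the median of all genes by 0.13 and 0.13 for methionine, 0.12 and 0.13 for phenylalanine, 0.25 and 0.26 for tryptophan and 0.11 and 0.13 for valine. TMM factors left 0 called for tryptophan, and no trend left 0 for tryptophan and for phenylalanine. Without the 4 libraries that stood apart, 2 were called for phenylalanine and 7 for leucine, and MT-ND3 became 0.15 for isoleucine and MT-ND4, MT-ND5 and MT-ATP6 became -0.085, -0.21 and -0.16 for valine.

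Other uncalled values changed sign. For histidine MT-ND3 was 0.027 and MT-CO3 0.069 with TMM factors, and MT-CO3 was 0.031 and 0.022 with the 2 equal-total scalings. For tryptophan those scalings gave MT-ND5 0.23 and 0.24 and MT-ATP6 0.13 and 0.14, and the second gave MT-ND3 0.0049 for isoleucine. Leaving out 1 library at a time, members called ran from 0 to 1 for histidine, 0 to 2 for phenylalanine and for valine, 0 to 8 for tryptophan and 4 to 8 for leucine, and, leaving out 1 replicate number, differing responses ran from 12 to 22. The histidine call was MT-ND5, called lower. In the same runs histidine gave MT-ND1 -0.0059 to 0.37, MT-ND2 -0.19 to 0.19, MT-ND3 -0.25 to 0.14, MT-CYB -0.069 to 0.28, MT-CO1 -0.32 to 0.035 and MT-CO3 -0.19 to 0.17. Tryptophan gave MT-ND3 -0.030 to 0.25, MT-ND5 -0.11 to 0.13, MT-CYB -0.016 to 0.31 and MT-ATP6 -0.23 to 0.083, and isoleucine MT-ND3 -0.15 to 0.15. Valine gave MT-ND1 -0.0022 to 0.51, MT-ND4 -0.11 to 0.31, MT-ND5 -0.095 to 0.28, MT-CO2 -0.014 to 0.58 and MT-ATP6 -0.22 to 0.33. The cause was not tested. Of the alternatives for called members, 224 kept the call and 37 lost it. Member counts in the alternatives are given without the share of all genes called in the same alternative. With 4 or 5 libraries a group, the number of libraries limits the precision.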

Other observations

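Lists of nuclear genes not described above are given here for methionine restriction, where 27.8% of all tested genes were called higher and 25.4% lower. Assembly factors of the respiratory chain had 16 of 40 higher and 7 lower, with NDUFAF8 at 1.73 and NDUFAF4 at 1.46, both complex I assembly factors. Mitochondrial translation factors had 7 of 14 higher and 2 lower, and transcription and genome maintenance 5 of 16 higher and 1 lower, with the helicase TWNK at 1.24 and the DNA polymerase POLG at -1.21. Mitochondrial proteostasis had 5 of 14 higher and 2 lower, with the protease LONP1 at 1.07 and the chaperones HSPA9 at 0.93 and TRAP1 at -1.28. Under tryptophan restriction the same 4 lists had 26 of 40, 7 of 14, 14 of 16 and 8 of 14 lower, beside 27.7% of all tested genes, with the chaperonins HSPE1 at -1.73 and HSPD1 at -1.36.

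Transcripts without or with variable poly(A) tails were followed beside the members. Of 14 tested under leucine restriction 1 was higher and 1 lower (median log2 fold change -0.014), and of 13 tested under methionine restriction 0 were higher and 4 lower (median -0.15). Their part in the members' values was not tested.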
